A study of Mus musculus with 108 samples.

Results

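In cultured mouse germline stem cells, RNA-rich cells were compared with RNA-poor cells grown in the same culture. The cells were chosen by their spike-in RNA: 92 synthetic ERCC RNAs were read beside the cell's own RNA, and their levels were summed per cell in RPM, the authors' read counts scaled to the gene reads of the cell. A low sum means that the cell's own RNA took more of the reads. Within each culture line the third of cells with the lowest sum was taken as RNA-rich and the third with the highest as RNA-poor, which gave 35 RNA-rich and 35 RNA-poor cells. Of the rest of the series, 37 cells lay between them and 1 GSC1 cell was left out by the rule (91374 RPM of spike-ins and 5748 detected genes). Of the 92 spike-ins, 26 to 39 were above 0 in single RNA-rich cells and 26 to 38 in single RNA-poor cells. The names RNA-rich and RNA-poor hold only if every cell received the same amount of spike-in RNA, which was not tested.

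The 4 culture lines GSC1, GSC2, GSCLC1 and GSCLC4 hold 30, 24, 30 and 24 cells, and 9, 8, 10 and 8 of them fell in each class. A GSC line is a culture of spermatogonial stem cells from testes, and GSC2 goes back to its own testes of postnatal day 7. A GSCLC line holds germline stem cell-like cells, which derive from pluripotent stem cells, and for GSCLC4 the reconstituted testes had spent 3 weeks at 34 °C. All lines had the labelled strain 129/SvJcl x C57BL/6, carried an AcrAct_EGFP reporter and grew with GDNF, bFGF, LIF and EGF, so both classes share line, reporter and medium. Each line was 1 culture in these labels, and the sources used here do not say whether its cells came from separate dishes. Each cell was profiled by SC3-seq, which reads the 3′ ends of polyadenylated RNA.

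Spike-in RNA added in a fixed amount is a standard reference for how much RNA a cell holds, because a cell with more of its own RNA leaves the spike-ins a smaller share. Cells gain RNA as they grow through the cell cycle, and a cell in G2 holds replicated DNA and prepares for mitosis. Cyclins A and B, with the kinase Cdk1, carry cells into and through mitosis, and many genes of this phase are switched on together late in the cycle. Undifferentiated spermatogonia, the stem cell compartment of the testis, depend on GDNF, whose receptor is formed by Gfra1 and Ret.

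The 4 G2 and M phase genes printed here are those of the 17 members with an unadjusted p under 0.05, described further on, that hold a cell cycle homology letter string in the last 60 bases before the start. A promoter sequence was at hand for 51 of the 60 G2 and M phase genes, and not for Ccna2. Each stretch is the 150 bases before the RefSeq start on GRCm38.p6, 5′ to 3′ on the gene's strand. Capitals mark TTTGAA, the core of the cell cycle homology region known from promoters of late cell cycle genes, and CCAAT, each on either strand (TTCAAA and ATTGG on the other). The 2 motifs do not overlap each other. Kif11 (chr19:37376232-37376381, plus strand) encodes a motor of the mitotic spindle, Cdc20 (chr4:118437344-118437493, minus strand) an activator of the anaphase-promoting complex, Prc1 (chr7:80294326-80294475, plus strand) a cytokinesis protein and Top2a (chr11:99024190-99024339, minus strand) a DNA topoisomerase.
Kif11: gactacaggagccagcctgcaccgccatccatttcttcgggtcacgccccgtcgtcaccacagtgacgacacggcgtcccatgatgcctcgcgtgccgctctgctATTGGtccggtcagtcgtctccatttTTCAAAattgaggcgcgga
Cdc20: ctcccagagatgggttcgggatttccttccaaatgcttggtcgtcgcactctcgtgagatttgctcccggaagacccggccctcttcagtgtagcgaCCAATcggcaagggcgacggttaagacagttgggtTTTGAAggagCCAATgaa
Prc1: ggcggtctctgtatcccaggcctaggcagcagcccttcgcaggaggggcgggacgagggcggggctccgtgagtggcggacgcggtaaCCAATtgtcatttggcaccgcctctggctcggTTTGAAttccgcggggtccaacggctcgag
Top2a: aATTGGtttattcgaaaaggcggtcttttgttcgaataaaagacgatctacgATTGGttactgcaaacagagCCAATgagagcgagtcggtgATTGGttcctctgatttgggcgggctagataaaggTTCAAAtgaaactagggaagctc
In 250 bases before the start, 35.3% of the 51 G2 and M phase genes with a promoter in the table held TTTGAA on either strand, against 12.2% of 9044 tested genes. For CCAAT the shares were 78.4% and 41.98%, and for both motifs 33.3% and 4.92%. In the last 60 bases TTTGAA stood in 21.6% of the list and in 2.27% of the tested genes. Of the S phase list, whose genes act earlier in the cycle, 17.5% of 40 genes held TTTGAA in 250 bases. CCAAT stood in 65% of these S phase genes and both motifs in 12.5%. In the last 60 bases TTTGAA stood in 7.5% of them. Each S phase share lay above that of the tested genes and below that of the G2 and M phase list. A match is a description of the letters and not a binding site.

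The spike-in sums that chose the classes are given as a description. The medians in RNA-rich cells were 30400, 28553, 35351 and 27652 RPM in GSC1, GSC2, GSCLC1 and GSCLC4, and those in RNA-poor cells 58962, 38897, 55893 and 48206 RPM. The RNA-poor median was therefore 1.94, 1.36, 1.58 and 1.74 times the RNA-rich one in these lines, with the narrowest gap in GSC2. The highest RNA-rich cell of GSC1 had 38496 RPM and the lowest middle cell 38765, while the highest middle cell had 45732 and the lowest RNA-poor cell 48263. In GSC2 the same 4 values were 30383, 31251, 35145 and 36467 RPM, in GSCLC1 39194, 40166, 46302 and 48408 RPM, and in GSCLC4 30921, 31495, 37355 and 38492 RPM. Cells near a class boundary thus differed little from their neighbours.

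When every other spike-in ranked the cells, the RNA-poor median sum of the spike-ins held out was 1.27 to 1.97 times the RNA-rich one over the lines. Of the cells in a class, 14 to 20 per line stood in the same class under such a ranking. The ranking and held-out spike-ins are scaled to the same gene reads of a cell, so they are not independent. Each set is also part of the sum that made the classes. Both classes showed germ cell identity. The 10 germ cell markers summed to a median of 5997 RPM in RNA-rich cells (4027 to 8346) and 5672 RPM in RNA-poor cells (2816 to 8447). Dazl, Ddx4, Gfra1, Ret, Etv5, Mael and Piwil2 were detected in all 35 cells of each class. Zbtb16 and Sall4 were each detected in 35 RNA-rich and 34 RNA-poor cells, and Lin28a in only 18 RNA-rich and 16 RNA-poor cells. Markers of other cell types were low: the 7 fibroblast markers summed to medians of 222 and 246 RPM, the 7 Sertoli markers to 11.97 and 1.45 RPM, the 5 Leydig and peritubular markers to 0.276 and 0.042 RPM and the 6 blood and endothelial markers to 0.182 and 0 RPM, RNA-rich cells first each time. Amh, Cst9, Fshr, Cyp11a1 and Csf1r were at 0 in all compared cells. The fibroblast sum reached 2712 RPM in 1 RNA-rich cell and 1802 RPM in 1 RNA-poor cell.

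More genes were detected in RNA-rich cells than in RNA-poor cells of every line. A gene was counted as detected at RPM above 0. In the order GSC1, GSC2, GSCLC1 and GSCLC4, the median RNA-rich cell had 9341, 9190, 9034 and 10108 detected genes, and the median RNA-poor cell 8811, 8587, 7997 and 9388. The mean difference was 723 ± 224 genes (SD, n = 4 lines), positive in 4 of 4 lines. A two-sided exact permutation test over the 4 lines gave p = 0.125, the smallest that 4 lines allow, and 0.208 after adjustment over the 5 cell measures compared, so the design could not reach 0.05. The classes overlapped widely, with 8283 to 10959 genes in RNA-rich cells and 7305 to 10595 in RNA-poor cells. Middle cells had line medians of 8731, 9353, 8585 and 9866 genes, which lay above the RNA-rich median in GSC2 and below the RNA-poor median in GSC1.

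Depth did not follow the classes in one direction. Reads per cell, estimated from the worth of 1 read, had medians of 3.78, 3.96, 3.46 and 3.37 M reads in RNA-rich cells and 3.24, 4.43, 3.16 and 3.43 M reads in RNA-poor cells. RNA-rich cells were deeper in 2 of 4 lines (mean log2 difference 0.042 ± 0.170, exact permutation p = 0.75). After each cell was thinned to 2000405 reads, the RNA-rich medians were 8568, 8640, 8608 and 9673 detected genes and the RNA-poor medians 7919, 7854, 7636 and 8720. The mean difference at equal reads was 840 ± 152 genes (SD, n = 4 lines), again in 4 of 4 lines (exact permutation p = 0.125).

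**Figure D1:**
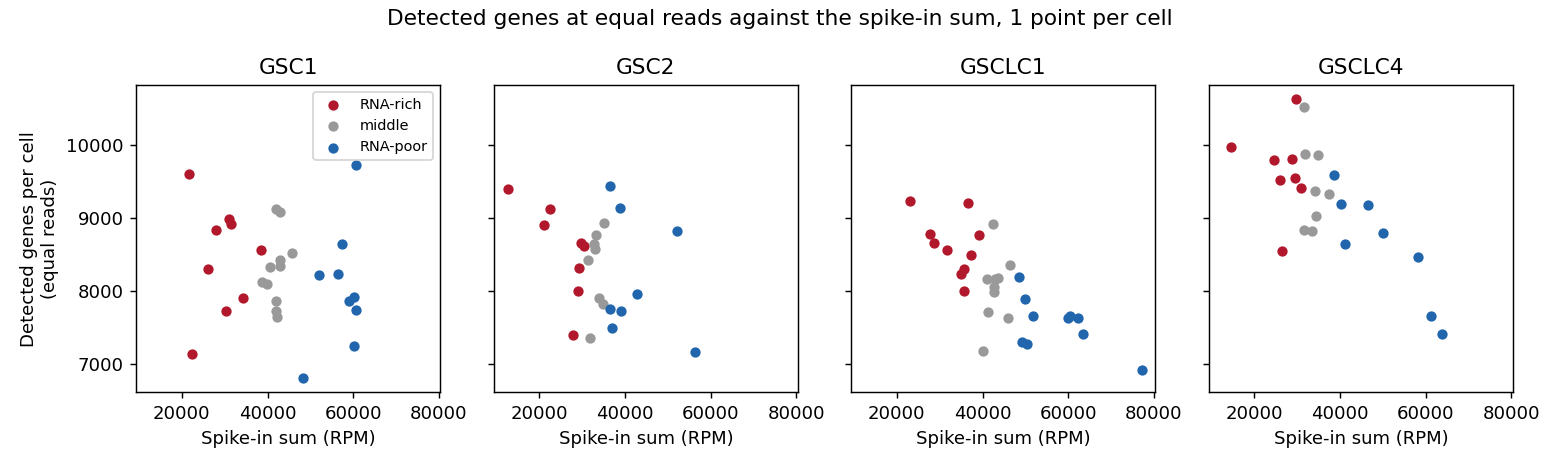
Detected genes per cell after thinning to equal reads (y axis, genes) against the spike-in sum (x axis, RPM) in each culture line, with 1 point per cell and red for RNA-rich, grey for middle and blue for RNA-poor cells. The points fall to the right most clearly in GSCLC1 and GSCLC4, and RNA-rich medians lie 649 to 973 genes above RNA-poor medians.

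Across single cells of a line the Spearman rank correlation between spike-in sum and detected genes at equal reads was -0.15 over 29 cells of GSC1, -0.26 over 24 of GSC2, -0.74 over 30 of GSCLC1 and -0.62 over 24 of GSCLC4. These cells share a line, and the values are a description. GSC1 cells form 2 runs by the serial numbers in their titles, and the labels do not say whether these are batches. Within the first run the RNA-rich and RNA-poor medians were 9490 and 8819 detected genes, and within the second 8771 and 8177.

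Genes of the G2 and M phase had the highest median difference of the 24 gene lists. The summed level of the 60 listed genes averaged 9681 RPM over RNA-rich and 5155 over RNA-poor cells in GSC1, 7390 and 6394 in GSC2, 10196 and 5942 in GSCLC1 and 7976 and 7934 in GSCLC4. The class means therefore differed clearly in GSC1 and GSCLC1 and hardly in GSCLC4. The mean log2 difference was 0.476 ± 0.436 (SD, n = 4 lines), a 1.39-fold higher level in RNA-rich cells, positive in 4 of 4 lines (two-sided exact permutation p = 0.125, adjusted 0.208 over 5 measures). Single RNA-rich cells ranged from 2399 to 19565 RPM and RNA-poor cells from 1393 to 16794 RPM, so the classes overlapped over most of their range.

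The 4-of-4 count rested on the mean and on 1 cell. By the median over cells, the G2 and M phase sum was 7957 RPM in RNA-rich cells against 3486 RPM in RNA-poor cells of GSC1 and 10397 against 5303 RPM in GSCLC1, but 5859 against 7634 RPM in GSC2 and 8035 against 9096 RPM in GSCLC4. RNA-rich cells were thus lower in GSC2 and GSCLC4 by this measure (mean log2 difference 0.40, exact permutation p = 0.5). Without the highest RNA-rich cell of GSCLC4, an alternative chosen after seeing the data, its RNA-rich mean was 6320 RPM against 7934 RPM in RNA-poor cells. The cell left out there also had the lowest spike-in sum of GSCLC4, 14669 RPM. Middle cells averaged 7485, 8025, 5789 and 9498 RPM, above the RNA-rich mean in GSC2 and GSCLC4 and below the RNA-poor mean in GSCLC1. Within the first GSC1 run the means were 8830 RPM in RNA-rich and 6010 RPM in RNA-poor cells, and within the second 10362 and 4087 RPM. Rank correlations with the spike-in sum were -0.45, -0.21, -0.54 and -0.003 in the same order of lines, as a description over the same cells as above.

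The S phase list, genes of DNA replication, differed less. Its sum averaged 8126, 9667, 8863 and 9949 RPM in RNA-rich cells of GSC1, GSC2, GSCLC1 and GSCLC4 and 6840, 8084, 10424 and 7587 RPM in RNA-poor cells. RNA-rich cells were higher in 3 of 4 lines and lower in GSCLC1 (mean log2 difference 0.166 ± 0.274, exact permutation p = 0.25, adjusted 0.312). Within the first GSC1 run the RNA-rich mean was lower, at 7543 RPM against 7974 RPM in RNA-poor cells, and in the second run it was higher, at 8593 against 5422 RPM.

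**Figure D2:**
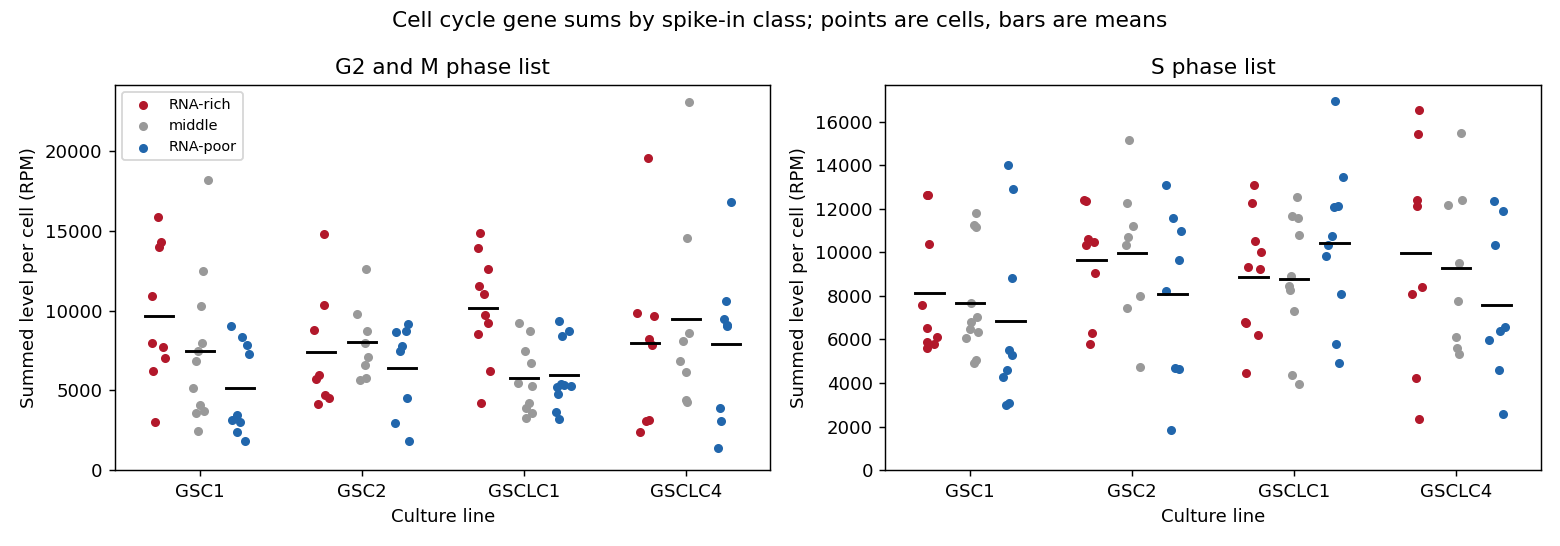
Summed level of the G2 and M phase list (left) and the S phase list (right) per cell (y axis, RPM) by culture line, with RNA-rich cells in red, middle cells in grey and RNA-poor cells in blue, from left to right within each line. Bars are class means; the highest RNA-rich cell of GSCLC4 stands at 19565 RPM for the G2 and M phase list, far above the other RNA-rich cells of its line.

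Gene by gene, the line was the unit of the test, with the mean RPM of each class in each line, and the difference was taken on log2(mean RPM + 1), which understates changes of low genes. Of 11575 tested genes 0 passed an adjusted p of 0.05 in limma (0%; smallest adjusted p = 0.929). At an unadjusted p under 0.05, 587 genes (5.07%) stood out, of which 337 (2.91%) were higher and 250 (2.16%) lower in RNA-rich cells. The median log2 difference of all tested genes was 0.037, and 53.5% were above 0. Differences had the same sign in all lines upwards in 773 genes (6.68%) and downwards in 663 (5.73%). All gene differences below are therefore values that did not pass the test.

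Within the G2 and M phase list all 60 genes were tested, 58 were above 0 and the median log2 difference was 0.55. At an unadjusted p under 0.05, 17 were higher in RNA-rich cells and 0 lower (2.91% and 2.16% of all tested genes). In all 4 lines 13 were higher (6.68% of all tested genes). The genes of the list are measured in the same cells and move together from cell to cell, so their number is not a number of independent observations. The line medians over the same order of lines were 0.96, 0.24, 0.70 and 0.04, and GSC1 and GSCLC1 lay far above the medians of all tested genes (-0.03, 0.03, 0.00 and 0.07). Exceptions below 0, named after their values were seen, were the microtubule regulators Ckap5 and Kif2c, both at -0.03. Members other than Ccna2, Kif23, Prc1, Kif11, Dlgap5, Ccnb1, Mki67 and Top2a were also named after their values were seen.

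Ccna2, cyclin A2, averaged 378, 397, 591 and 338 RPM in RNA-rich cells of GSC1, GSC2, GSCLC1 and GSCLC4, against 267, 219, 270 and 281 RPM in RNA-poor cells. It was higher in every line and the line means of the classes did not overlap (log2 0.69 ± 0.18 SE, limma unadjusted p = 0.00265, adjusted p = 0.929). Single cells did, with 0.627 to 985 RPM in RNA-rich and 0 to 707 RPM in RNA-poor cells. Ccnb1, cyclin B1, had 621, 356, 689 and 496 RPM in RNA-rich cells and 221, 357, 217 and 468 RPM in RNA-poor cells, a large gap in GSC1 and GSCLC1 alone (log2 0.81). Of its values above 0, 50.5% were not whole reads. Ccnb2 had a log2 difference of 0.53 and the kinase Cdk1 one of 0.38.

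Among genes of the spindle and of cell division, Kif23, a motor of the central spindle, had 133.4, 47.6, 86.0 and 93.7 RPM in RNA-rich cells and 28.2, 25.2, 38.2 and 51.95 RPM in RNA-poor cells (log2 1.27 ± 0.35 SE, unadjusted p = 0.00351, adjusted p = 0.929). It was higher in every line. Kif11 had 71.7, 60.9, 47.9 and 70.01 RPM in RNA-rich cells against 10.997, 43.1, 14.1 and 40.5 RPM in RNA-poor cells (log2 1.39). Prc1 had 31.2, 50.5, 64.0 and 47.4 RPM in RNA-rich cells and 31.2, 10.9, 0.724 and 22.01 RPM in RNA-poor cells (log2 2.10), with equal levels in GSC1. It reached 5 RPM in 26 of 35 RNA-rich and 8 of 35 RNA-poor cells. Dlgap5, a spindle assembly protein, had 35.1 RPM in RNA-rich and 0.147 RPM in RNA-poor cells of GSC1, and differed by 0.08 to 0.69 on the log2 scale in the other lines.

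Kinetochore and checkpoint genes ranged from values near 0 to a log2 difference above 1. Cenpa, the centromeric histone, had 362, 235, 212 and 214 RPM in RNA-rich cells against 79.01, 133.04, 100.3 and 215 RPM in RNA-poor cells, with no gap in GSCLC4 (log2 1.02). Cdc20 had 205, 114.4, 279 and 145.4 RPM in RNA-rich and 60.9, 109.03, 51.9 and 140.4 RPM in RNA-poor cells (log2 1.06), and again the gap was wide in GSC1 and GSCLC1. The log2 differences were 0.66 for the checkpoint kinase Bub1, 0.68 for the checkpoint protein Mad2l1, 0.61 for Cenpf, 1.17 for Nuf2 and 1.302 for the kinase Nek2. In GSCLC1, Bub1, Mad2l1 and Nuf2 were lower in RNA-rich cells (-0.08, -0.23 and -0.64). The checkpoint genes Bub3, Ttk and Bub1b had mean log2 differences of 0.16, 0.22 and 0.23, with at least 1 line below 0 for each. They were 0.59 for the kinase Aurkb, 0.92 for its partner Birc5, 1.72 for the phosphatase Cdc25c and 0.72 for Cks2. For Cks2 79% of values were not whole reads. Top2a had 724, 446, 791 and 443 RPM in RNA-rich cells against 334, 424, 333 and 470 RPM in RNA-poor cells (log2 0.59), and was lower in RNA-rich cells of GSCLC4. Mki67, a marker of cycling cells, had 203, 70.4, 208 and 144.998 RPM in RNA-rich cells against 60.3, 129.3, 58.5 and 155.1 RPM in RNA-poor cells (log2 0.65, unadjusted p = 0.134) and was lower in RNA-rich cells of GSC2 and GSCLC4. Plk1, Ube2c and Aurka, mitotic regulators, had log2 differences of 1.06, 0.75 and 0.91.

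**Figure D3:**
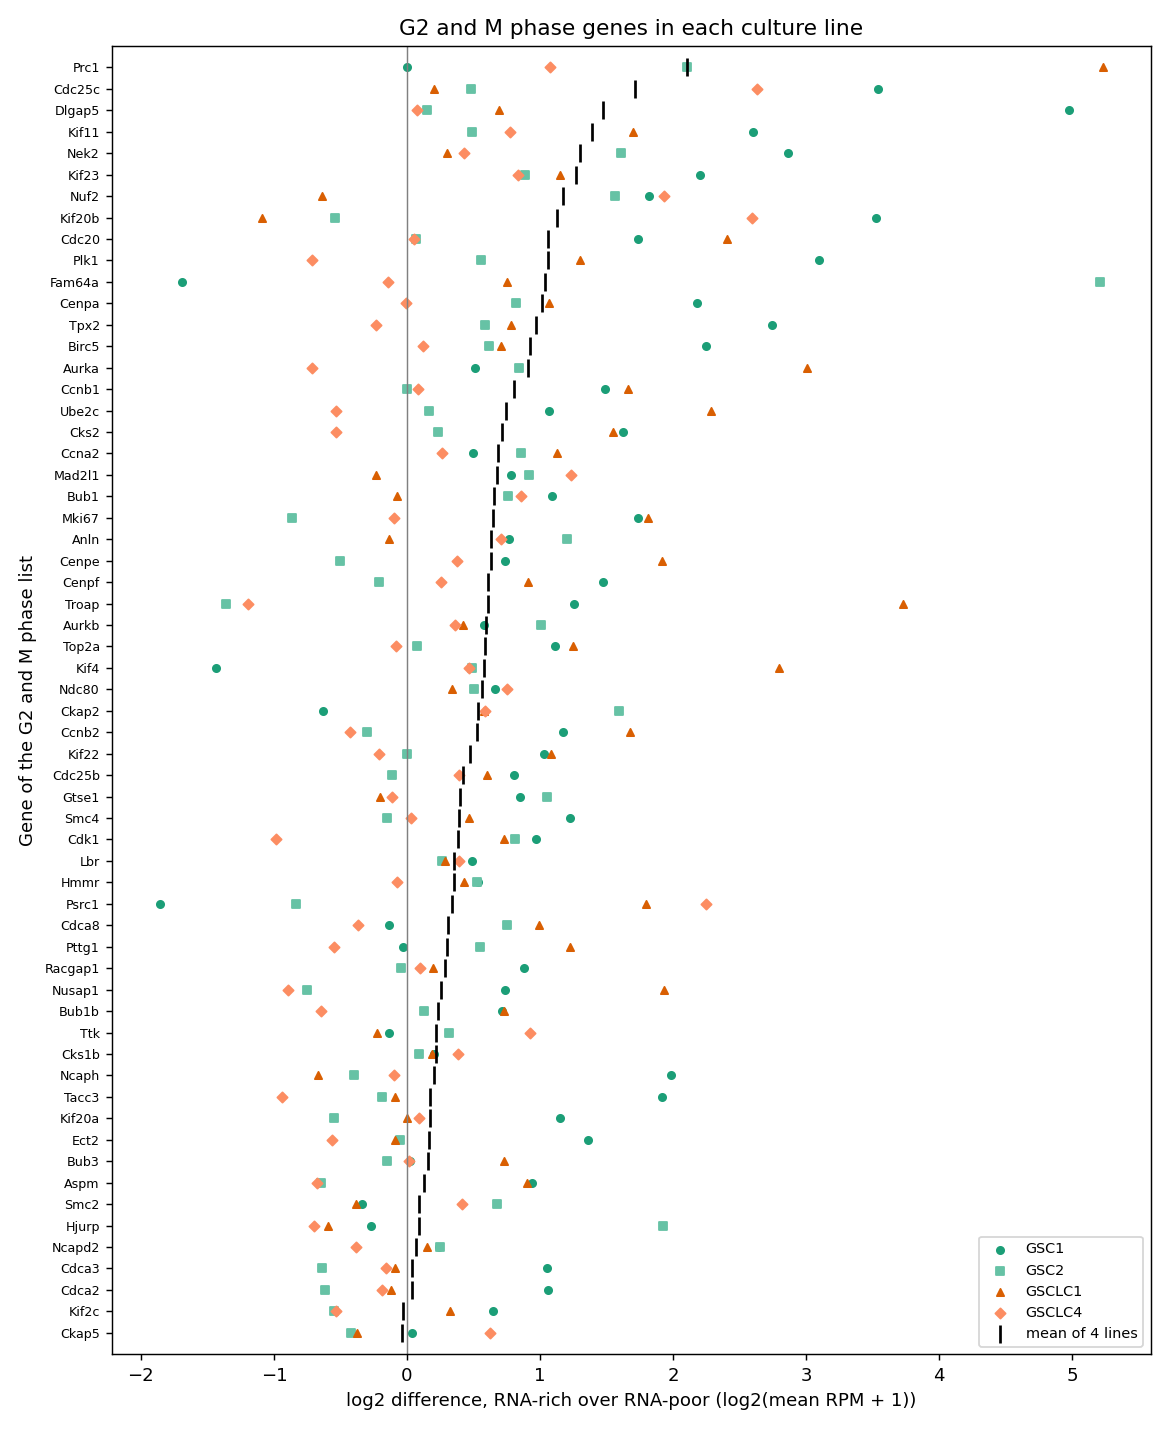
Log2 difference between RNA-rich and RNA-poor cells (x axis, log2(mean RPM + 1)) for each of the 60 G2 and M phase genes (y axis), with 1 symbol per culture line and a black bar for the mean of 4 lines. Bars lie above 0 for 58 genes, and the order of the lines changes from gene to gene: Dlgap5 has its highest value in GSC1 (4.98), Prc1 in GSCLC1 (5.24) and Nuf2 in GSCLC4 (1.93).

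In the S phase list 38 of 51 tested genes were above 0 (median 0.16), beside 53.5% of all tested genes. At an unadjusted p under 0.05, 5 were higher and 0 lower (2.91% and 2.16% of all tested genes). Gins1, a subunit of the replicative helicase complex, had 122.2, 98.3, 82.8 and 97.2 RPM in RNA-rich cells and 25.7, 26.7, 75.9 and 87.9 RPM in RNA-poor cells (log2 1.08). Gins2 of the same complex was lower in RNA-rich cells of GSCLC1 (21.6 against 37.4 RPM) and higher in the other lines (log2 1.36). The replication factor Mcm10 had a log2 difference of 0.87, and Exo1, a nuclease, and Slbp, which binds histone mRNA, both named after their values were seen, had 0.62 and 0.37. Pcna, the replication clamp, had 466, 834, 450 and 844 RPM in RNA-rich cells and 478, 523, 612 and 401 RPM in RNA-poor cells (log2 0.32), with no common direction. Mcm5 had a log2 difference of 0.20 and cyclin E1 (Ccne1) one of 0.14. Of 13 tested D-type cyclins, their kinases and CDK inhibitors, 6 were above 0 and none had an unadjusted p under 0.05 (5.07% of all tested genes). Cdk4 had 240.5, 238.5, 264 and 264 RPM in RNA-rich cells against 344, 313, 364 and 270 RPM in RNA-poor cells (log2 -0.35). Ccnd2 had a log2 difference of -0.21, Ccnd1 of -0.29 and Cdk6 of -0.28. The inhibitor Cdkn1b, named after its values were seen, had 1.34, 2.13, 2.05 and 21.8 RPM in RNA-rich and 0.123, 0.471, 0 and 8.18 RPM in RNA-poor cells.

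The genes with the smallest p values, named by rule, came from many functions. Higher in RNA-rich cells of every line were Fam69a, now Dipk1a (56.5, 68.7, 43.8 and 56.8 RPM against 29.2, 13.6, 9.35 and 6.03 RPM in RNA-poor cells, log2 2.08), and Tmcc1, a membrane protein (51.3, 53.7, 47.5 and 91.6 RPM against 16.1, 13.8, 20.9 and 22.6 RPM in RNA-poor cells, log2 1.65). For both, the line means of the classes did not overlap, although single cells did. Also higher in every line were the chaperone Hspa4l (log2 1.11), Dcun1d5 (0.76), which acts in neddylation, the bromodomain gene Cecr2 (0.94), Luc7l3 (1.10), which acts in splicing, Rg9mtd1, now Trmt10c (1.43), of mitochondrial tRNA processing, and 2500003M10Rik, now Chtop (0.60), of mRNA export. Unadjusted p was 0.00109 to 0.00528 for these genes and adjusted p = 0.929 for each in limma.

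Egr1, an immediate early transcription factor, had the smallest p in the lower direction. It had 116.3, 130.1, 50.2 and 115.8 RPM in RNA-rich cells, against 433, 320.4, 317 and 176.96 RPM in RNA-poor cells. It was lower in every line and the line means of the classes did not overlap (log2 -1.61 ± 0.29 SE, limma unadjusted p = 0.000122, adjusted p = 0.929). Single cells did, with 0 to 413 RPM in RNA-rich and 0.261 to 2066 RPM in RNA-poor cells. Within the immediate early list it was the only gene with an unadjusted p under 0.05 in limma, a level that 5.07% of all tested genes reached. Of 14 tested genes 7 were above 0, the median was -0.003, Egr3 was at -1.14 and Klf4 at 0.65. The line medians of the list were -0.27, -0.60, 0.06 and 0.08 in GSC1, GSC2, GSCLC1 and GSCLC4. Derl2, of protein export from the endoplasmic reticulum, had 3.98, 13.5, 9.17 and 48.4 RPM in RNA-rich cells and 59.9, 111.1, 35.9 and 105.2 RPM in RNA-poor cells (log2 -2.38). P4hb, a protein disulfide isomerase, had 351, 449, 394 and 397 RPM in RNA-rich cells against 729, 665, 541 and 562 RPM in RNA-poor cells (log2 -0.64). The remaining rule-named genes lower in every line were Brp44, now the mitochondrial pyruvate carrier Mpc2 (-0.56), Enc1 (-0.94), the zinc transporter Slc30a7 (-1.11), 1600012H06Rik (-1.65), Pdhb, a subunit of pyruvate dehydrogenase (-0.72), and Commd4 (-1.01). Per spike-in the values of P4hb, Brp44 and Pdhb were above 0, at 0.23, 0.38 and 0.11, where the median of all tested genes was 0.86.

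**Figure D4:**
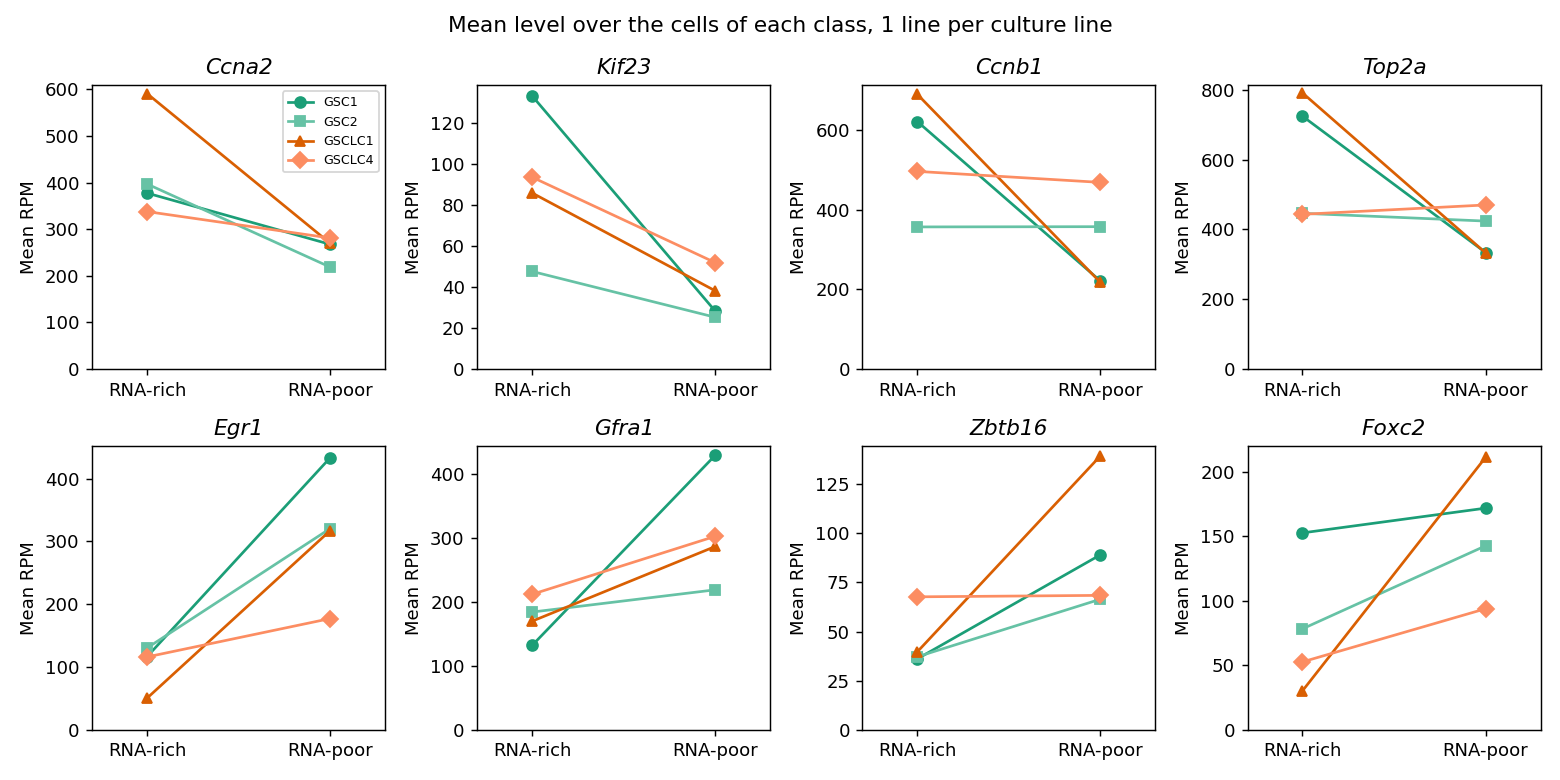
Mean level (y axis, RPM, from 0) of 8 genes over the RNA-rich cells (left of each panel) and RNA-poor cells (right) of each culture line, with 1 connected pair of points per line. Ccna2 and Kif23 are higher in RNA-rich cells of all lines, Ccnb1 and Top2a mainly in GSC1 and GSCLC1. Egr1, Gfra1, Zbtb16 and Foxc2 are lower in RNA-rich cells of all lines in RPM. Per spike-in Gfra1 has a log2 difference of 0.09, where the median of all tested genes is 0.86.

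Among genes of undifferentiated spermatogonia 11 of 26 tested were above 0 (median -0.10). At an unadjusted p under 0.05, 0 were higher and 4 lower in RNA-rich cells (2.91% and 2.16% of all tested genes), and 5 were lower in all 4 lines (5.73% of all tested genes). Gfra1, the GDNF co-receptor, had 132.02, 184.07, 169.8 and 212 RPM in RNA-rich cells, against 429.5, 219, 287 and 303 RPM in RNA-poor cells (log2 -0.80 ± 0.24 SE, unadjusted p = 0.00514, adjusted p = 0.929). It was lower in every line and the line means of the classes did not overlap. Single cells did, with 27.8 to 457 RPM in RNA-rich and 12.6 to 820 RPM in RNA-poor cells. Per spike-in, a scale described at the end, its log2 difference was 0.09, where the median of all tested genes was 0.86. Zbtb16, a transcription factor needed for stem cell maintenance, had 36.1, 37.2, 39.7 and 67.7 RPM in RNA-rich cells, against 89.1, 66.5, 139.6 and 68.4 RPM in RNA-poor cells (log2 -0.98), with nearly equal levels in GSCLC4. Foxc2, a transcription factor of the same compartment, had 152.7, 78.2, 30.1 and 52.6 RPM in RNA-rich cells against 171.9, 142.7, 211 and 93.8 RPM in RNA-poor cells (log2 -1.16). Named after their values were seen, the other members lower in all lines were Nanos2 (log2 -2.21), which reached 5 RPM in 3 RNA-rich and 4 RNA-poor cells, and Sall4 (-0.40). The line medians of the list were -0.65, -0.05, -0.29 and 0.06 in the same order of lines.

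Of 15 tested genes of differentiating spermatogonia 7 were above 0 (median -0.21). At an unadjusted p under 0.05, 0 were higher and 1 lower (2.91% and 2.16% of all tested genes). That gene was Rec8, a meiotic cohesin, at -1.91, with line means of 0.589 to 19.7 RPM in RNA-rich and 8.72 to 55.7 RPM in RNA-poor cells. A single RNA-poor cell with 417 RPM held 46.6% of the RNA-poor sum. Crabp1 was at 0.82, Dnmt3b at 0.59 and Kit, the receptor that marks differentiating spermatogonia, at 0.18. Of 25 germ cell and piRNA pathway genes 16 were above 0 (median 0.06). At an unadjusted p under 0.05, 2 were higher and 0 lower (2.91% and 2.16% of all tested genes). Piwil4, a piRNA-binding protein, had 30.3, 50.5, 57.0 and 84.7 RPM in RNA-rich cells and 30.0, 8.47, 31.5 and 45.3 RPM in RNA-poor cells (log2 1.05), Gtsf1, named after its values were seen, was at 0.45, Tdrd7 at 0.73 and Dnd1 at -0.51. Ddx4 differed by 0.01 and Dazl by 0.15.

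Genes that make ribosomes, RNA and protein had medians near that of all genes when expressed as RPM, a share of the cell's own reads. Of 79 cytosolic ribosomal protein genes 22 were above 0 (median -0.06), with 0 at an unadjusted p under 0.05, and Rps27, Rpl36 and Rps29 were at -0.33, -0.27 and -0.23. Their summed level was 195818, 174851, 184102 and 158880 RPM in RNA-rich cells and 183256, 198014, 175504 and 179474 RPM in RNA-poor cells. An unadjusted p under 0.05 was found in 5.07% of all tested genes. Ribosome biogenesis (median -0.01, 27 of 56 above 0), translation factors (0.04, 25 of 45), general transcription (0.05, 29 of 49) and the spliceosome (0.03, 27 of 49) had 1 to 3 such genes each, with 3 in the spliceosome. These were Polr2d, a subunit of RNA polymerase II (-0.59), Lsm5 (0.47) and, named after their values were seen, Wdr75 (-0.41), Eif3m (0.35), Srsf3 (-0.32) and Hnrnpc (-0.43). Further members named by rule were Polr1e (1.23), Pno1 (0.60), Nop14 (-0.55), Eif2b5 (0.52), Eef1d (-0.44), Eif2s3x (0.39), Taf13 (1.37), Gtf2h4 (0.69), Snrpd1 (0.58) and Prpf4 (0.48). Npm1, a nucleolar chaperone, was at -0.10.

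Lists of metabolism and stress, in RPM, had medians between -0.05 and 0.21. For the respiratory chain 30 of 75 genes were above 0. At an unadjusted p under 0.05, 0 were higher and 3 lower (2.91% and 2.16% of all tested genes). These were Ndufab1 (270, 320, 315 and 368 RPM in RNA-rich cells against 434, 449, 436 and 434 RPM in RNA-poor cells, log2 -0.47) and, named after their values were seen, Cox4i1 (-0.30) and Atp5j2 (-0.42). Uqcrc2 was at 0.44. Glycolysis (9 of 17 above 0) held Aldoc (-0.44), Hk2 (0.40) and Ldha (0.35), cholesterol synthesis (14 of 20) held Sc5d (0.73) and Hsd17b7 (-0.70), and the proteasome (17 of 31) held Psmd7 (0.42), Psmd6 (-0.40) and Psmd13 (-0.28). Of 22 heat shock and chaperonin genes 12 were above 0 and 3 were lower in every line (5.73% of all tested genes). Hsph1 and Hspa4 were among these (-0.55 and -0.39), and Hspa5 was at -0.30. Of 30 lysosome genes 15 were above 0, with Ctsa at -1.06 and Npc2 at -0.81. The heat shock and lysosome lists each had 0 genes higher and 2 lower at an unadjusted p under 0.05 (2.91% and 2.16% of all tested genes). In the p53 and apoptosis list 15 of 21 were above 0 (median 0.21). At an unadjusted p under 0.05, 1 was higher and 1 lower (2.91% and 2.16% of all tested genes). Both encode pro-apoptotic proteins: Bcl2l11 at 1.64 and, named after its values were seen, Bbc3 at -2.76. Bbc3 reached 5 RPM in 2 RNA-rich and 7 RNA-poor cells. Sesn1 was at 1.09, Sesn2 at 0.47 and Bax, named after its values were seen, at 1.02.

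Nuclear-retained long RNAs had 4 tested members, 1 of them above 0. Malat1 had 24.7, 21.7, 33.1 and 12.4 RPM in RNA-rich cells against 36.9, 36.8, 25.8 and 40.8 RPM in RNA-poor cells (log2 -0.65), Kcnq1ot1 was at -1.53, and Meg3, named after its values were seen, reached 5 RPM in 4 RNA-rich and 0 RNA-poor cells. Markers of other cell types differed between the classes in single genes, and their part in the results was not tested. Of 12 tested fibroblast genes 4 were above 0, with S100a6 at 0.71, Vim at 0.35 and S100a4 at -0.87. Of 7 tested Sertoli genes 4 were above 0 and the range was -0.86 to 1.92, with Rhox5 at 1.87 and, named after their values were seen, Clu at 1.92 and Wt1 at -0.67 in RPM (0.36 per spike-in). Of 3 Leydig and peritubular genes 3 were above 0, with Pdgfra at 0.75, and of 3 blood and endothelial genes 0 were above 0. The nuclear-retained, fibroblast and Sertoli lists each had 1 gene higher and 0 lower at an unadjusted p under 0.05. The Leydig and blood lists had 0 in either direction. Over all tested genes the shares were 2.91% higher and 2.16% lower.

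**Figure D5:**
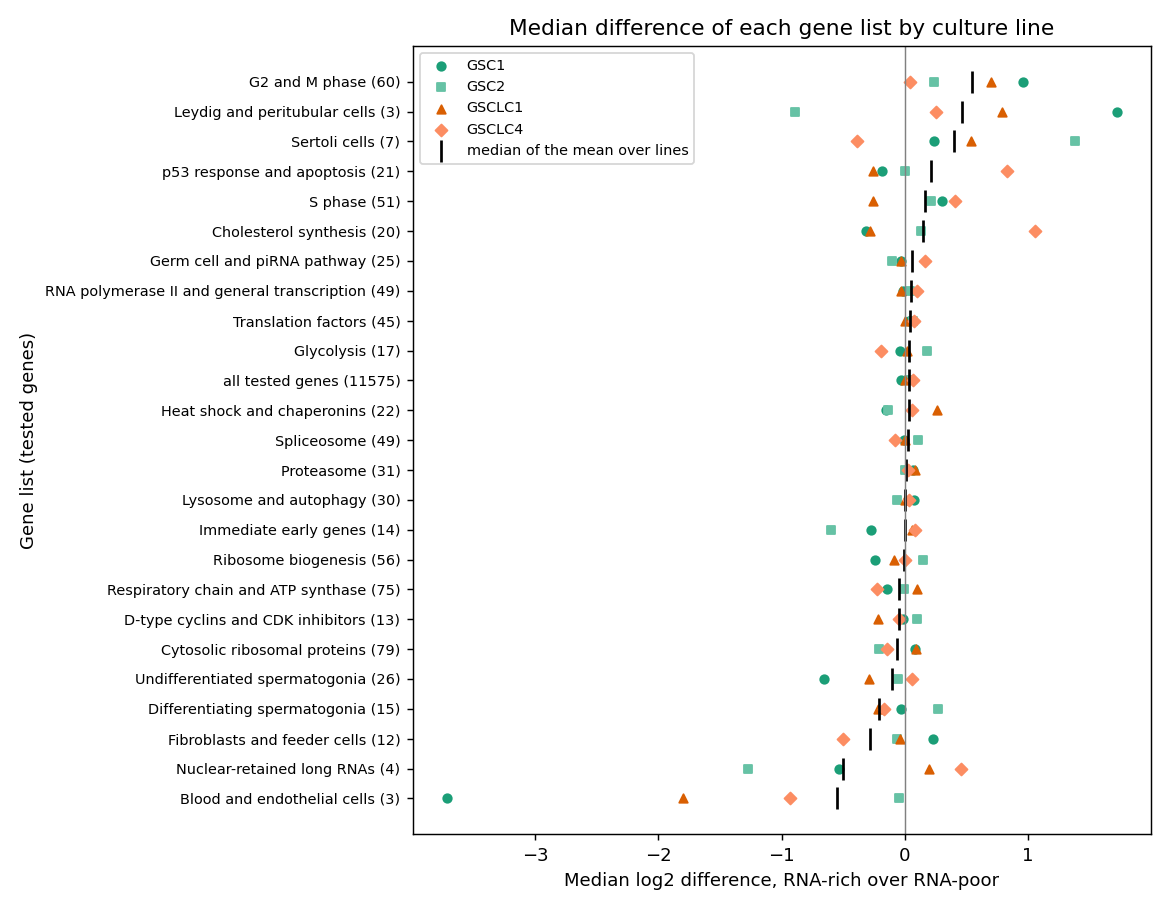
Median log2 difference between RNA-rich and RNA-poor cells (x axis) of each of 24 gene lists and of all tested genes (y axis, with the number of tested genes), with 1 symbol per culture line and a black bar for the median of the means over lines. The G2 and M phase list lies highest at 0.55, and lists of 3 to 7 genes scatter widely between lines.

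Whether the difference between the classes itself differed between GSCLC and GSC lines was tested as an interaction in limma. Of 11575 genes 0 passed an adjusted p of 0.05 (0%), and 442 (3.82%) had an unadjusted p under 0.05.

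When each value was divided by the spike-in sum, which is the measure that chose the cells, the median of all tested genes moved to 0.86 and 3421 genes passed, 3419 of them higher in RNA-rich cells. That shift is what the choice of cells fixes. Of the named genes below 0 in RPM, 35 were above 0 per spike-in, so that the directions given above hold for RPM, relative to the cell's own reads. On the same scale the median of the G2 and M phase list was 1.44, of the S phase list 0.99, of ribosomal protein genes 0.86 and of undifferentiated spermatogonia genes 0.79.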

How the data were processed

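The authors deposited 1 table of expression signal in RPM for 26218 genes and 92 spike-ins in 108 single cells. The submitters' processing notes name TopHat 1.4.1, Cufflinks 2.2.0, cutadapt 1.3 and the build mm10; the sources used here do not say how multi-mapping reads were counted. Gene rows sum to between 1000640 and 1001485 RPM per cell and spike-ins come on top; 6440 empty spike-in entries were read as 0. The worth of 1 read in each cell gave 2.00 to 6.05 M reads per cell (median 3.47 M). Between 81.0% and 92.4% of values were whole reads within 0.05 read, too few for a count model.

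Mean RPM per class and line gave 8 values per gene. Genes with 5 RPM or more in 2 or more of them were tested on log2(mean RPM + 1) with limma 3.58.1 in R 4.3.3 (line as block, variance trend, Benjamini-Hochberg, threshold 0.05). Adjusted p-values come from that fit. The classes were made within each line, which is why the line is a block. Cell measures were compared with two-sided exact sign-flip permutation tests over 4 lines. Doublets were not called. Each sample is 1 cell by its labels, and whether any held more than 1 cell was not tested. No pair of cells had identical values. The fit was tested on simulated data with 200 changed genes before use. It recovered 17.1% of 2-fold, 51.3% of 4-fold and 92.3% of 16-fold changes, and 6.44% of its calls were false. Most 2-fold changes would therefore be missed.

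The members and lists were chosen with earlier results of these data known. The 24 lists hold 803 symbols, of which 798 matched. Genes were named by rule: 10 per direction with the smallest p, 1 direction in all lines and at least 50 RPM (none passed the threshold), up to 3 per list with at least 20 RPM, and a fixed set. Others are marked in the text, and 3 genes named by the rule are not reported here. Promoters are from RefSeq (GRCm38.p6, the assembly of mm10). Alternatives covered pseudocount, filter, scaling, summary, depth, class size, ranking spike-ins and left-out lines.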

Additional observations from a re-analysis of the deposited data

Results flagged for a closer look

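Of 205 groups of cells or line differences looked at, 13 held a value far from the others, where chance flags about 1 in 20. Among cells, 1 RNA-poor cell of GSCLC1 had 77135 RPM of spike-ins and 1 had 4975362 estimated reads, both above the other RNA-poor cells of GSCLC1. One RNA-rich cell of GSCLC4 had 14669 RPM of spike-ins, below the other RNA-rich cells of GSCLC4. That same GSCLC4 cell had a G2 and M phase sum of 19565 RPM, and 1 RNA-poor cell of GSC1 had 10595 detected genes. Each value lay above those of the other cells of its class and line.

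Among genes, 1 line stood apart from the other lines in the log2 difference of RNA-rich over RNA-poor cells. It was GSC1 for Dlgap5 (4.98), Klf4 (1.91) and Hsph1 (-0.26). It was GSCLC1 for Rg9mtd1 (0.78), Dnd1 (-1.67), Ccne1 (-0.72) and Nuf2 (-0.64), and GSCLC4 for Cdk1 (-0.99).

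The line medians of 3 lists had one sign in both GSCLC lines and the opposite sign in both GSC lines. The mean GSCLC minus GSC difference was 1.23 for nuclear-retained long RNAs (4 tested genes), 0.31 for heat shock and chaperonins and 0.51 for immediate early genes on the log2 scale. The differences between these lines were not tested for the lists.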

How the results depend on the processing

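The count of 0 genes past the threshold held in limma under every alternative run except levels per spike-in (3421 genes, on the measure that chose the cells). Unadjusted counts were 469 with no replicate block for the line and 1105 (1046 higher, 59 lower) for the mean of log2 over cells, with 587 in the fit as reported. Detected genes and both cell cycle sums kept the sign of their mean over lines in all alternatives. The direction did not hold in every line under every class cut. For detected genes the exact permutation p was 0.25 with the cells split at the median and with odd spike-ins. For the G2 and M phase sum it was 0.25 with the cells split at the median and with narrower classes. With 4 lines, a value above 0.125 means that at least 1 line was not higher in RNA-rich cells. Without 1 line each, the differences in detected genes were 618 to 787, at equal reads 796 to 904, the S phase log2 difference 0.09 to 0.30, and that of G2 and M phase 0.33 to 0.63. The G2 and M phase difference was 0.39 without the highest RNA-rich cell of GSCLC4. The log2 difference of estimated reads was -0.0582 with the cells split at the median spike-in sum, -0.0305 with even spike-ins and -0.0187 to 0.110 without 1 line each. With 4 lines no cell measure could pass 0.05.

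Named genes changed sign as follows. Per spike-in the median of all tested genes was 0.86, a shift that the choice of cells fixes. For the other alternatives the cause of a changed sign was not tested. Per spike-in the log2 differences were P4hb 0.23, Brp44 0.38, Pdhb 0.11, Gfra1 0.0893, Cdk4 0.48, Ccnd1 0.63, Cdk6 0.115, Rps27 0.57, Rpl36 0.64, Rps29 0.64, Nop14 0.39, Eef1d 0.48, Polr2d 0.35, Malat1 0.26, Ndufab1 0.42 and Aldoc 0.54. Further values on that scale were Hsd17b7 0.11, Psmd6 0.49, Psmd13 0.59, Hsph1 0.37, Hspa4 0.53, Hspa5 0.52, Npc2 0.0839, Dnd1 0.34, Ccnd2 0.73, Npm1 0.80, Kif2c 0.88, Ckap5 0.84, Sall4 0.49, Cox4i1 0.61, Atp5j2 0.47, Srsf3 0.56, Hnrnpc 0.47, Wdr75 0.49 and Wt1 0.36. Over the fits without 1 line each, the ranges were -0.529 to 0.0819 for Ccnd1, -1.33 to 0.55 for Cdk6, -0.0446 to 0.61 for Ldha, -0.44 to 1.18 for Sesn2, -1.85 to 0.46 for S100a4 and -0.0398 to 1.52 for Pdgfra. They were -0.057 to 0.42 for Mcm5, -0.131 to 0.0956 for Ddx4, -0.428 to 0.0192 for Ccnd2, -0.253 to 0.144 for Kif2c, -0.253 to 0.0955 for Ckap5, -0.0375 to 0.26 for Bub3 and -0.0134 to 0.37 for Ttk. With the cells split at the median they were Aldoc 0.17, Bcl2l11 -0.0093, Sesn2 -0.0443, Ttk -0.0836 and Pdgfra -0.58, and with narrower classes of 25% each Cdk6 0.24, Kif2c 0.59 and Ckap5 0.12. With odd spike-ins they were Pdgfra -0.50, Kif2c 0.105 and Ckap5 0.13, and with even ones Ddx4 -0.0446 and Kif2c 0.043. With the mean of log2 over cells they were Kif2c 0.24, Ckap5 0.23 and Wdr75 0.20, and with reads as a covariate Ccnd2 0.0159, Bub1b -0.0131 and Ckap5 0.0059. With the left-out cell kept they were Vim -0.31 and Ckap5 0.0005. A pseudocount of 0.1 gave Cdk6 0.36, one of 10 gave Pdgfra -0.0006, median-of-ratios scaling gave Ddx4 -0.0125, and classes set within the GSC1 runs gave Kif2c 0.0068.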
